A study of Mus musculus with 20 samples.

Results

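The hippocampus of adult male mice whose mothers had inhaled nano-sized particulate matter (nPM) in pregnancy was compared with that of male mice whose mothers had inhaled filtered air. All 10 libraries labelled male entered the comparison, 5 controls and 5 after nPM, of 20 libraries in the series, and the other 10, labelled female, were used only to ask whether an effect differed between the sexes. nPM is a subfraction of the finest urban traffic particles, collected on filters and aerosolized again from water. By the study's account it lacks polycyclic aromatic hydrocarbons. The mice were C57BL/6 by the labels and C57BL/6J in the study's methods, and their dams inhaled nPM on 3 days of each week, 5 h a day, from gestational day 2 until birth, while the filtered-air dams were kept in parallel in the same room.

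The labels give a dose of 300 mg/m3, where the study's methods give the same figure in μg. By the labels the control males were 18.57 to 19.14 weeks old and the nPM males 18.86 to 19.14 weeks. Exposure ended at birth, and all males had been through a forced swim test, a glucose tolerance test and injections of EdU before tissue was taken. The brains were perfused with saline and the right hippocampus was used. Offspring came from few litters in each exposure group and the labels do not tie samples to litters, so littermates could be among the replicates, and p-values measure the spread between these samples.

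As background, the hippocampus is built of granule cells in the dentate gyrus and pyramidal cells in fields CA1, CA2 and CA3, with interneurons and glia among them, and serves memory and the control of stress responses. Serotonin reaches it on fibers from the raphe nuclei, and receptors coupled to inhibitory G proteins (Gi/o), such as the serotonin receptor 5-HT1B, lower cyclic AMP (cAMP) and hold back transmitter release where they sit on axon endings. Release itself needs calcium sensors, such as synaptotagmins and Doc2 proteins, that couple calcium entry to the fusion of vesicles with the membrane.

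Total RNA depleted of ribosomal RNA was sequenced and deposited as whole-number counts of 48709 genes. Totals were 28026459 to 38663408 counts in controls and 31189000 to 37378472 after nPM, and levels are given as CPM (counts per 1000000 counts of a library, scaled by TMM). Where a gene had 0 counts, its level could still be as high as 3 counts (0.0776 to 0.107 CPM, for counting error only). Summed counts of 4 Y-linked genes (Ddx3y, Uty, Kdm5d and Eif2s3y) were 7875 to 11883 in the libraries labelled male against 0 to 20 in those labelled female, and Xist, the RNA that silences one X chromosome in females, had 0 to 59 counts against 15466 to 38047. A pair of libraries stood apart. Control male 1 held 392 counts of the cerebellar granule cell gene Gabra6, where the other males had 1 to 10, and nPM male 1 held 638 counts of Tfap2b, where the others had 1 to 32. Results are therefore also given without these, chosen after the data were seen. Mitochondrial ribosomal RNA held 11.5% to 11.9% of counts in controls and 9.38% to 11.8% after nPM.

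Of 18852 genes that passed a filter on low counts, 42 had p under 0.005, the threshold of the study, in limma-voom (0.223%), and a flat distribution of p-values would give 94.3. Of these, 20 were higher after nPM (0.106%) and 22 lower (0.117%). No gene reached an adjusted p under 0.05. The smallest adjusted p was 0.956, and all 42 genes had that value. At p under 0.05 there were 811 genes (4.3%), 396 of them higher (2.1%) and 415 lower (2.2%). edgeR's quasi-likelihood test gave 0 genes with an adjusted p under 0.05 and DESeq2 gave 1, Doc2b. With counts scaled to library totals alone, 49 of 66 genes with p under 0.005 were higher, and with the filter and the TMM factors taken from all 20 samples 24 of 41 were. The 42 became 24 without nPM male 5, 79 without nPM male 4, and 47 without control male 1 and nPM male 1, of which 12 were among the 42.

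The 5 controls and the 5 nPM samples did not overlap at all for 127 genes (0.674%), with nPM higher for 57 (0.302%) and lower for 70 (0.371%). Among the 42 genes, 25 did not overlap. For a single gene, the smallest p of the exact permutation test over all ways to split the 10 samples into groups of 5 is 0.00794, and these 25 genes had it. A gene with no difference has that same chance of not overlapping, and 0.674% of all genes did not overlap. Since the 42 were chosen by their limma p on the same values, their exact p adds no separate support. Leaving out each sample in turn, the 42 kept their direction in all 10 fits, and 9 kept p under 0.005 in all of them. These fits reuse the values that chose the 42, so they show dependence on single samples and add no separate support. The 9 were Doc2b, Lonrf3, Col11a1 and Bcl11b, which were higher, and Hbq1a, 1700001L19Rik, Tecta, Slc25a24 and Usp43, which were lower. Without control male 1 and nPM male 1, 4 of the 9 no longer passed in limma, with p of 0.00572 for Col11a1, 0.00654 for 1700001L19Rik, 0.00526 for Slc25a24 and 0.00753 for Usp43, and Tfb2m and Bglap3 did not pass either, with 0.00753 and 0.0169.

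**Figure D1:**
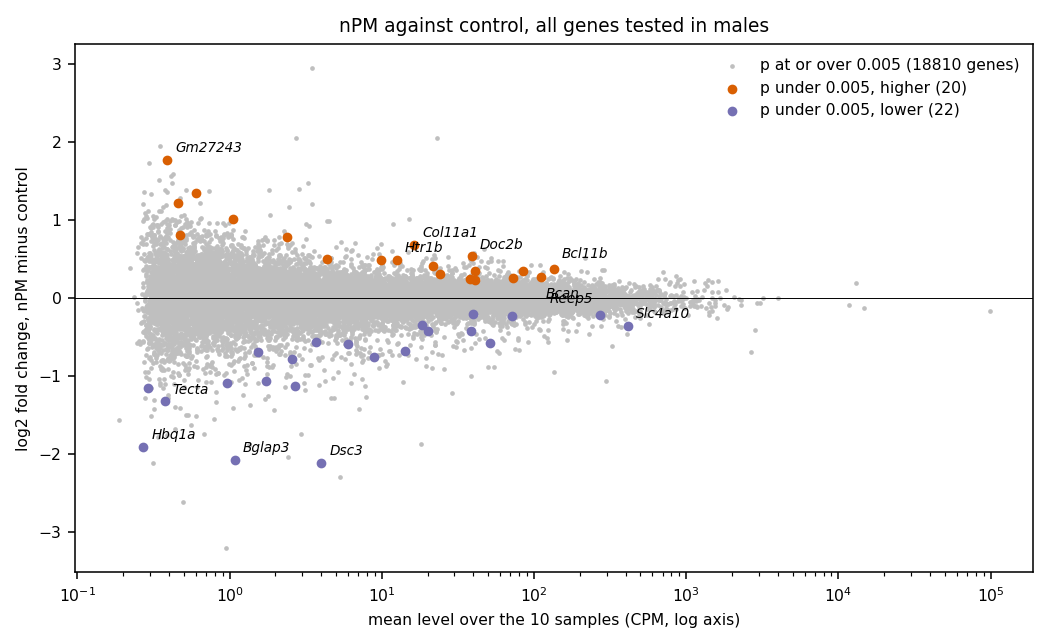
Log2 fold change of nPM over control males (vertical axis) against the mean level over the 10 samples in CPM (horizontal axis, log scale), 1 point for each of the 18852 genes tested, with the 20 higher and 22 lower genes with p under 0.005 in color. The spread of all genes narrows from left to right, and genes called above 10 CPM lie nearer to 0 than those called below 1 CPM.

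How large a difference could pass depended on the level of the gene. Among the 3245 genes under 1 CPM the median SE was 0.34 on the log2 scale, and at that SE p under 0.005 corresponds to a 2.26-fold change. Among the 7796 genes at 10 to 100 CPM the median SE was 0.09, which corresponds to a 1.24-fold change. The share with p under 0.005 was near the same in the lowest class, 8 genes or 0.247%, and in the highest, 4 of 2117 genes or 0.189%. The median size of the 42 differences was 0.57. Of the 12 genes that changed more than 2-fold, 9 had a mean of fewer than 50 counts per library. Protein-coding genes made up 31 of the 42 (0.210% of the 14774 tested, beside 0.223% of all genes), of which 12 were higher and 19 lower. Fitted alone, protein-coding genes gave 33 with p under 0.005, and the lean was the other way, with 18 higher and 15 lower. Long noncoding genes made up 5 of the 42 (0.335% of the 1491 tested).

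The genes that were higher after nPM included a calcium sensor of vesicle fusion (Doc2b), a zinc-finger transcription factor of hippocampal and cortical neurons (Bcl11b, also called Ctip2), a serotonin receptor (Htr1b), and proteins of the extracellular matrix (Col11a1, Bcan). Their differences were between 1.17-fold and 1.60-fold for the named protein-coding genes with over 10 CPM. Doc2b (ENSMUSG00000020848.7, chromosome 11, 75768966 to 75796049, minus strand, mm10) encodes a protein that binds calcium and promotes vesicle fusion. It was at 28.8, 34.7, 35.7, 30.7 and 30.7 CPM in control males 1 to 5. In nPM males 1 to 5 it was at 44.6, 39.5, 46.8, 45.7 and 56 CPM. Every nPM sample was above every control (log2 fold change 0.53 ± 0.10 (SE), limma p = 0.000131, exact permutation p = 0.00794), and the 95% interval of the log2 fold change was 0.32 to 0.74. Doc2b had the smallest p of all genes, and kept p under 0.005 in all 10 fits that left out a sample and in all 20 other alternatives. DESeq2 gave it an adjusted p of 0.00426. Its close relative Doc2a was at 13.8 ± 1.79 CPM (SD, n = 5) in controls and 10.6 ± 3.21 after nPM, with ranges that overlap (log2 fold change -0.41 ± 0.20 (SE), limma p = 0.0608, exact permutation p = 0.0952).

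Bcl11b (ENSMUSG00000048251.15, chromosome 12, 107910403 to 108003602, minus strand) was at 97.3, 122, 129, 115 and 125 CPM in controls and 137, 147, 149, 155 and 169 CPM after nPM. The lowest nPM sample lay above the highest control (log2 fold change 0.37 ± 0.08 (SE), limma p = 0.001, exact permutation p = 0.00794). It was among the 3 most abundant of the 42 genes and kept p under 0.005 in all 10 fits without a sample and in all 20 other alternatives. Col11a1 (ENSMUSG00000027966.20, chromosome 3, 114030540 to 114220718, plus strand), a chain of fibrillar collagen type XI, was at 10.7, 11.3, 18.4, 11.5 and 11.8 CPM in controls and 23.9, 19.4, 19.9, 15.5 and 21.3 CPM after nPM. Control male 3 stood above the other 4 controls and overlapped the nPM samples (log2 fold change 0.68 ± 0.15 (SE), limma p = 0.000857, exact permutation p = 0.0159). Lonrf3, a protein with a RING finger, was at 21.5 ± 1.31 CPM (SD, n = 5) in controls and 26.6 ± 1.75 after nPM without overlap (log2 fold change 0.31 ± 0.07 (SE), limma p = 0.00084, exact permutation p = 0.00794).

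Htr1b (ENSMUSG00000049511.5, chromosome 9, 81628291 to 81633828, minus strand) encodes the Gi-coupled serotonin receptor 5-HT1B, an inhibitor of release on axon endings. It was at 11.6, 13.2, 8.66, 11.6 and 8.14 CPM in controls. After nPM it was at 15.7, 12.6, 14.5, 15.3 and 14.8 CPM, so that 4 of 5 nPM samples lay above every control and 1 lay within their range (log2 fold change 0.48 ± 0.13 (SE), limma p = 0.00306, exact permutation p = 0.0159). Its p stayed under 0.005 in 4 of the 10 fits without a sample and in 16 of 20 other alternatives. Without control male 1 and nPM male 1 the log2 fold change was 0.49 and the limma p was 0.0079, above the threshold. The antisense gene D430036J16Rik overlaps Htr1b, and since the sources used here state no strand setting, reads of the pair cannot be told apart. The log2 fold change of D430036J16Rik was 0.03 ± 0.19 (SE). Of the 42 genes, 19 overlap another annotated gene, Doc2b among them, whose antisense neighbour Gm12339 was below the filter.

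Of the other higher genes, Nhsl1, a relative of the Nance-Horan syndrome protein, was at 35 ± 2.13 CPM (SD, n = 5) in controls and 41.2 ± 2.48 after nPM, and the meiosis gene 4930447C04Rik at 8.2 ± 0.656 CPM (SD, n = 5) in controls and 11.6 ± 1.96 after nPM, both without overlap. The noncoding RNA C78859, which spans the microRNA gene Mir138-2, was at 18.7 ± 2.76 CPM (SD, n = 5) in controls and 24.4 ± 1.78 after nPM without overlap, although control male 4 lay well below the other controls. The adhesion protein Igsf11 was at 37.5 ± 2.16 CPM (SD, n = 5) in controls and 43.9 ± 2.5 after nPM, and the ubiquitin ligase Hectd2 at 74.3 ± 8.63 CPM (SD, n = 5) in controls and 94.8 ± 11.9 after nPM. Several of the noncoding genes overlap another gene on the same strand. Gm15802 (4 to 15 counts in controls and 16 to 27 after nPM) overlaps Igsf11, Gm43753 overlaps Arap2, Gm37166 overlaps Rab6b and Gm19721 overlaps Gnai2, and reads of each pair cannot be told apart with certainty. Gm27243 had 3 to 9 counts in controls and 12 to 33 after nPM without overlap (log2 fold change 1.77 ± 0.43 (SE), limma p = 0.00161, exact permutation p = 0.00794), and at such depth its fold change carries a 95% interval of 0.82 to 2.72.

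**Figure D2:**
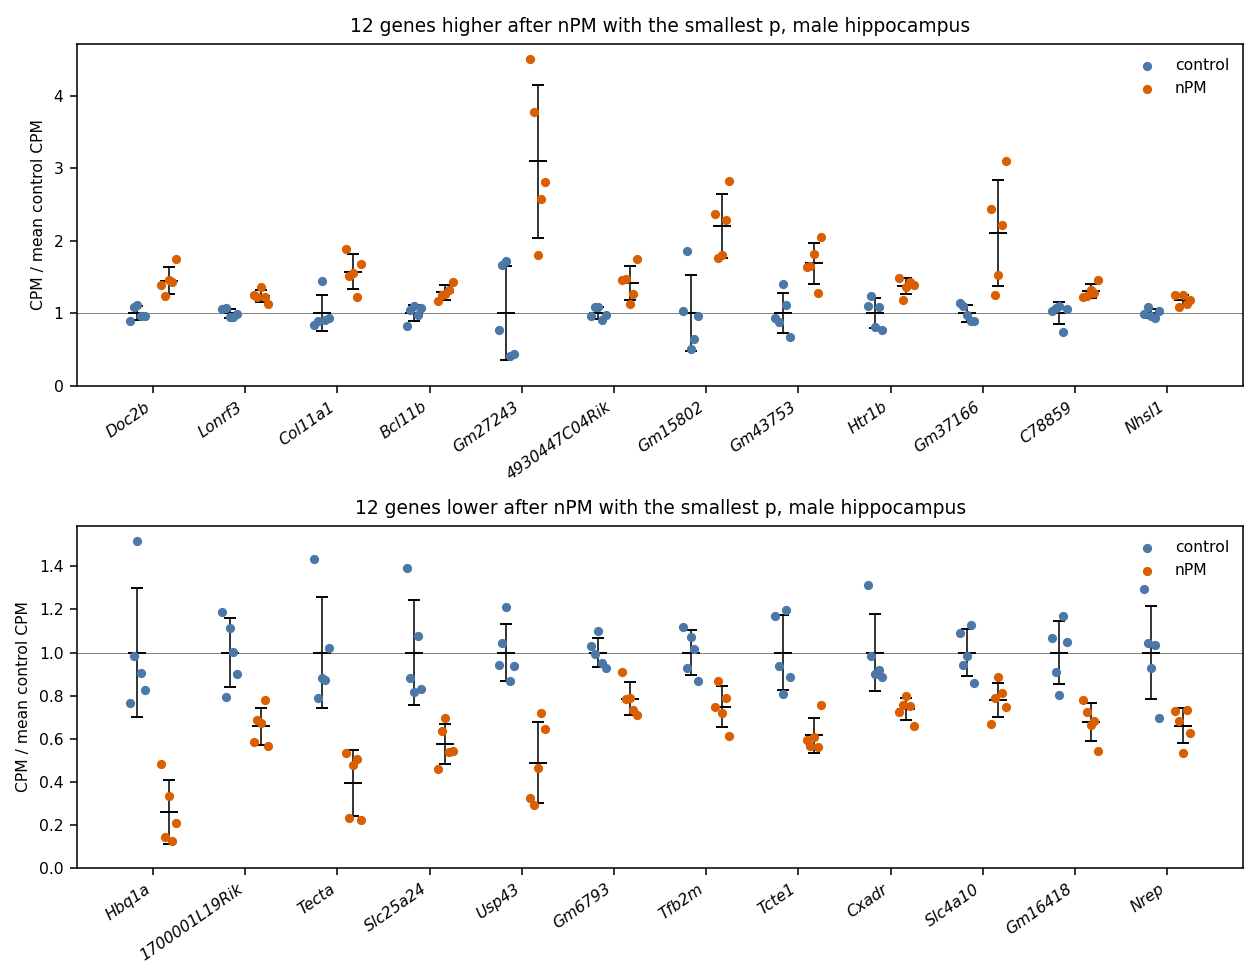
Level in each male library divided by the mean control level (vertical axis, ratio of CPM) for the 12 higher (top) and 12 lower (bottom) genes with the smallest p, with controls in blue, nPM in orange, and bars for the mean ± SD of 5 samples. Doc2b, Bcl11b and Lonrf3 separate without overlap at differences under 1.5-fold in the mean, while the larger ratios of Gm27243 and Hbq1a rest on few counts.

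The genes that were lower after nPM included transporters of mitochondria and of bicarbonate (Slc25a24, Slc4a10), the mitochondrial transcription factor Tfb2m, cell adhesion proteins (Cxadr, Dsc3), a pair of inner ear matrix proteins (Tecta, Otogl), and the catalytic subunit α2 of AMP-activated kinase, the cell's energy sensor (Prkaa2). Hbq1a (ENSMUSG00000020295.1, chromosome 11, 32300069 to 32300873, plus strand), a globin of the α cluster, had the smallest p among them, on few reads. It had 9, 12, 18, 15 and 13 counts in controls and 8, 2, 5, 2 and 3 after nPM, so that nPM male 1, with 8 counts, came next to the lowest control, with 9 (log2 fold change -1.91 ± 0.37 (SE), limma p = 0.000247, exact permutation p = 0.00794). It kept p under 0.005 in all 10 fits without a sample. Its near copy Hbq1b had 1 to 6 counts in every library and was below the filter, and how reads that fit both were counted is not stated.

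Slc25a24 (ENSMUSG00000040322.10, chromosome 3, 109123149 to 109168457, plus strand), a carrier of ATP-Mg and phosphate across the inner mitochondrial membrane, was at 4.52, 2.87, 2.66, 3.49 and 2.69 CPM in controls and 1.49, 2.07, 2.26, 1.74 and 1.76 CPM after nPM. The groups did not overlap (log2 fold change -0.78 ± 0.19 (SE), limma p = 0.0013, exact permutation p = 0.00794). Tfb2m, which acts with the mitochondrial RNA polymerase to start transcription, was at 23.1 ± 2.38 CPM (SD, n = 5) in controls and 17.2 ± 2.18 after nPM and overlapped between nPM male 2 and control male 5 (log2 fold change -0.42 ± 0.10 (SE), limma p = 0.00161, exact permutation p = 0.0159). Slc4a10 (ENSMUSG00000026904.17, chromosome 2, 62046462 to 62326730, plus strand), a sodium-driven bicarbonate transporter of neurons and choroid plexus, was the most abundant of the 42 genes. It was at 509, 440.2, 459, 526 and 401 CPM in controls. It was at 313, 368, 414, 379 and 348 CPM after nPM, where nPM male 3 lay within the range of the controls (log2 fold change -0.36 ± 0.09 (SE), limma p = 0.00209, exact permutation p = 0.0159). With the summed choroid plexus level as a covariate its limma p stayed under 0.005, and without control male 1 and nPM male 1 its log2 fold change was -0.27, with p above 0.005.

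Dsc3, a desmosomal cadherin, showed the largest decrease of the 42 (log2 fold change -2.12 ± 0.55 (SE), limma p = 0.00249, exact permutation p = 0.00794). It was at 18.3, 3.68, 4.04, 4.11 and 3.44 CPM in controls and 0.703, 1.35, 1.03, 2.69 and 0.775 CPM after nPM. The groups did not overlap, but control male 1, the library with cerebellar genes, was far above any other control, and without it and nPM male 1 the log2 fold change was -1.52. Bglap3, a gene of the osteocalcin cluster, had 56, 37, 68, 61 and 33 counts in controls and 9, 9, 3, 33 and 34 after nPM, where, as CPM, nPM male 5 lay above control male 5 and the other 4 nPM samples lay below every control (log2 fold change -2.08 ± 0.54 (SE), limma p = 0.00244, exact permutation p = 0.0159). Its neighbours Bglap and Bglap2 had at most 4 counts in a library. Cxadr, the coxsackievirus and adenovirus receptor of cell junctions, was at 44.3 ± 7.98 CPM (SD, n = 5) in controls and 32.7 ± 2.32 after nPM without overlap, and control male 1 was again the highest sample.

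Tecta, the α-tectorin of the tectorial membrane, had 12 to 21 counts in controls and 4 to 11 after nPM (log2 fold change -1.32 ± 0.31 (SE), limma p = 0.00127, exact permutation p = 0.00794). Otogl, an otogelin-like protein of the inner ear, had 50 to 106 and 22 to 59 counts (log2 fold change -1.06 ± 0.29 (SE), limma p = 0.00358, exact permutation p = 0.0159). The deubiquitinase Usp43 had 33 to 44 counts in controls and 12 to 34 after nPM, which did not overlap as CPM (log2 fold change -1.08 ± 0.26 (SE), limma p = 0.00131, exact permutation p = 0.00794). Nrep, a small neuronal protein tied to regeneration, was at 61.5 ± 13.4 CPM (SD, n = 5) in controls and 40.6 ± 5.05 after nPM, the axonemal gene Tcte1 at 1.89 ± 0.329 CPM (SD, n = 5) in controls and 1.16 ± 0.153 after nPM, and the scaffold protein Rai14 at 11 ± 2.31 CPM (SD, n = 5) in controls and 6.68 ± 2.06 after nPM. Prkaa2 was at 77.4 ± 4.08 CPM (SD, n = 5) in controls and 65.7 ± 5.23 after nPM, while Prkaa1, which encodes the α1 subunit, was at 58.6 ± 3.92 CPM (SD, n = 5) in controls and 58.1 ± 3.95 after nPM (log2 fold change -0.01 ± 0.07 (SE), limma p = 0.874, exact permutation p = 0.865). The limma p of Prkaa2 stayed under 0.005 in 2 of the 10 fits without a sample and in 6 of 20 other alternatives. Without control male 1 and nPM male 1 it was 0.0199, above the threshold. The endoplasmic reticulum protein Reep5 was at 292 ± 21.2 CPM (SD, n = 5) in controls and 250.5 ± 12 after nPM, and the lysosomal protease cathepsin F (Ctsf) at 42.3 ± 2.69 CPM (SD, n = 5) in controls and 36.7 ± 1.17 after nPM, with p under 0.005 in 2 and 1 of the 10 fits without a sample.

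Genes of 17 pathways were then followed as lists, 392 genes tested in all. Of these, 18 had p under 0.05 (4.59%, beside 4.3% of all genes). At p under 0.005 there were 3 (0.765%, beside 0.223%), which were Doc2b, Htr1b and Bcan. The lists were chosen with earlier results of these data known, so the share at p under 0.005 cannot be read as an excess. Beside the counts of higher and lower members given for each list, 8794 of all 18852 genes were higher (46.6%) and 10058 were lower. A lean to lower values was thus present over all genes. Where a single value with its SE is given for a list member, it is the log2 fold change of nPM over control. Of 15 tested genes of serotonin signaling, 7 were higher and 8 lower, with a median log2 fold change of -0.10, beside -0.01 over all genes, and Htr1b alone had p under 0.05. The median was -0.01 and 4 of the 15 had p under 0.05 without control male 1 and nPM male 1. For this and the list counts below, 797 of all 18890 genes had p under 0.05 in that fit. Without control male 1 alone, 866 of all 19159 genes did. The other receptors ranged from -0.51 ± 0.49 (SE) for Htr2c to 0.32 ± 0.25 for Htr6. Htr1a, the other main Gi-coupled serotonin receptor, was at 0.03 ± 0.12. Htr1f, a further Gi-coupled member, was at 0.30 ± 0.15 and the Gs-coupled Htr4 at 0.18 ± 0.10. Tph2, the enzyme that makes serotonin in neurons, was at 1.95 ± 0.470 CPM (SD, n = 5) in controls and 1.4 ± 0.266 after nPM (log2 fold change -0.43 ± 0.21 (SE), limma p = 0.0614, exact permutation p = 0.0476).

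Among 39 genes of Gi/o proteins, their regulators and Gi-coupled receptors, 15 were higher and 24 lower (median -0.04, and 0.00 with total counts alone), with 2 at p under 0.05. With both first libraries left out, 4 of the 39 had p under 0.05, and without control male 1 alone 20 were higher. Adra2c, the α2C adrenergic receptor, was at 8.68 ± 0.955 CPM (SD, n = 5) in controls and 11.5 ± 2.73 after nPM (log2 fold change 0.40 ± 0.15 (SE), limma p = 0.0243, exact permutation p = 0.0159), and the histamine receptor Hrh3 at 13.9 ± 2.75 CPM (SD, n = 5) in controls and 11.1 ± 1.78 after nPM (log2 fold change -0.32 ± 0.14 (SE), limma p = 0.0454, exact permutation p = 0.0714). The Gi/o subunits themselves lay between -0.20 ± 0.10 for Gnai1 and 0.01 ± 0.08 for Gnao1. In 33 cAMP signaling genes (median 0.01), Pde10a, a phosphodiesterase that degrades cAMP, was at 75.9 ± 5.55 CPM (SD, n = 5) in controls and 86.9 ± 4.8 after nPM (log2 fold change 0.20 ± 0.07 (SE), limma p = 0.0109, exact permutation p = 0.0238), and the adenylyl cyclase Adcy5, which makes it, at 77.9 ± 3.87 CPM (SD, n = 5) in controls and 88.3 ± 6.84 after nPM (log2 fold change 0.18 ± 0.07 (SE), limma p = 0.0195, exact permutation p = 0.0238). Both are rich in striatum, and the striatal adenosine receptor Adora2a had 12 to 36 counts in controls and 32 to 67 after nPM (log2 fold change 0.87 ± 0.31 (SE), limma p = 0.0168, exact permutation p = 0.0397). Of 12 striatal markers 8 were higher, and they summed to 169 to 208 CPM in controls and 163 to 217 CPM after nPM. Pde10a is itself one of these markers and a large part of the sum, so the part of striatal tissue in its difference was not tested. With the sum as a covariate, the limma p of Adcy5, which is not among the markers, was 0.0294. Of 38 endocytosis genes, 26 were lower (median -0.04, and 0.01 with 20 of 38 higher with total counts alone), and Cav2, the caveolin 2 of caveolae, had p under 0.05 at -0.28 ± 0.12 (SE). With both first libraries left out, 2 of the 38 had p under 0.05, and without control male 1 alone none did.

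Beside Doc2b, 2 of 31 genes of calcium sensors and vesicle fusion had p under 0.05, both lower. Stx1a, the syntaxin of the fusion complex at the plasma membrane, was at 62.8, 43, 69.9, 51 and 51.2 CPM in controls and 27.4, 35.1, 32.2, 55.8 and 47.3 CPM after nPM. The 3 lowest values were those of nPM males 1 to 3, while nPM males 4 and 5 lay in the control range (log2 fold change -0.52 ± 0.19 (SE), limma p = 0.0191, exact permutation p = 0.0635). Complexin 1 (Cplx1), which clamps the fusion complex, was at -0.18 ± 0.08. The 31 genes had a median of -0.07, 12 higher and 19 lower. Syt1, the sensor of fast release, was at -0.22 ± 0.11, and Syt7, a sensor of slow release, at 0.13 ± 0.11. Without control male 1 the median was -0.03.

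The 22 glutamate receptor genes were split evenly (median 0.00), with 1 at p under 0.05, or 2 with both first libraries left out. Gria1, a subunit of AMPA receptors and among the most abundant, was at 909.7 ± 63.1 CPM (SD, n = 5) in controls and 1029 ± 75.1 after nPM (log2 fold change 0.18 ± 0.07 (SE), limma p = 0.0246, exact permutation p = 0.0397), and the NMDA receptor subunit Grin2a at 815 ± 133 CPM (SD, n = 5) in controls and 951 ± 83.2 after nPM (log2 fold change 0.23 ± 0.11 (SE), limma p = 0.0528, exact permutation p = 0.0635). None of 18 genes of GABA synthesis, transport and receptors had p under 0.05. None of 22 immediate early genes, which report recent activity, had p under 0.05 either, and these varied widely between samples of a group, with an SE of 0.43 for Fos and 0.47 for Npas4. With both first libraries left out, 3 of the 22 had p under 0.05 and the median went from -0.01 to -0.13, and without control male 1 alone 3 did and the median was -0.08. The 10 genes of perineuronal nets, the matrix around interneurons, and of their lecticans had 8 higher members under TMM and with total counts alone (median 0.10). Bcan (ENSMUSG00000004892.13, chromosome 3, 87987531 to 88000230, minus strand), the lectican brevican, was at 92.6, 102, 94.3, 99.7 and 121 CPM in controls. After nPM it was at 126, 121, 117, 117 and 130.0 CPM, and control male 5 lay among the nPM samples (log2 fold change 0.27 ± 0.08 (SE), limma p = 0.00405, exact permutation p = 0.0317). Its p stayed under 0.005 in 1 of the 10 fits that left out a sample and in 14 of 20 other alternatives, and was 0.0557 in the limma fit of the 4 groups. Acan, the lectican aggrecan, was at 7.32 ± 2.67 CPM (SD, n = 5) in controls and 10.01 ± 2.00 after nPM (log2 fold change 0.50 ± 0.22 (SE), limma p = 0.0443, exact permutation p = 0.103), and control male 1 was lowest. Without control male 1 and nPM male 1, Bcan's log2 fold change was 0.22, its limma p was 0.0197, above the threshold, and 1 of the 10 genes had p under 0.05.

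Of 22 genes of immature neurons and neurogenesis, 14 were lower (median -0.10, and -0.03 without control male 1), beside 10058 of all 18852 genes. The largest difference of the list was that of Igfbpl1, which was higher, at 0.76, with p above 0.05. Tubb3, an early neuronal tubulin, was at 174 ± 10.2 CPM (SD, n = 5) in controls and 155 ± 10.2 after nPM (log2 fold change -0.17 ± 0.06 (SE), limma p = 0.0247, exact permutation p = 0.0317), and Dcx, doublecortin of newborn neurons, at 27.5 ± 2.6 CPM (SD, n = 5) in controls and 23.4 ± 3.81 after nPM (log2 fold change -0.24 ± 0.11 (SE), limma p = 0.0555, exact permutation p = 0.0873). Markers of dividing cells did not have p under 0.05, with Mki67 at -0.05 ± 0.17 and Top2a at -0.33 ± 0.25, and Eomes, a factor of intermediate progenitors, was at 0.48 ± 0.55 (SE). In bulk tissue, fewer cells of a type and less RNA per cell cannot be told apart.

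**Figure D3:**
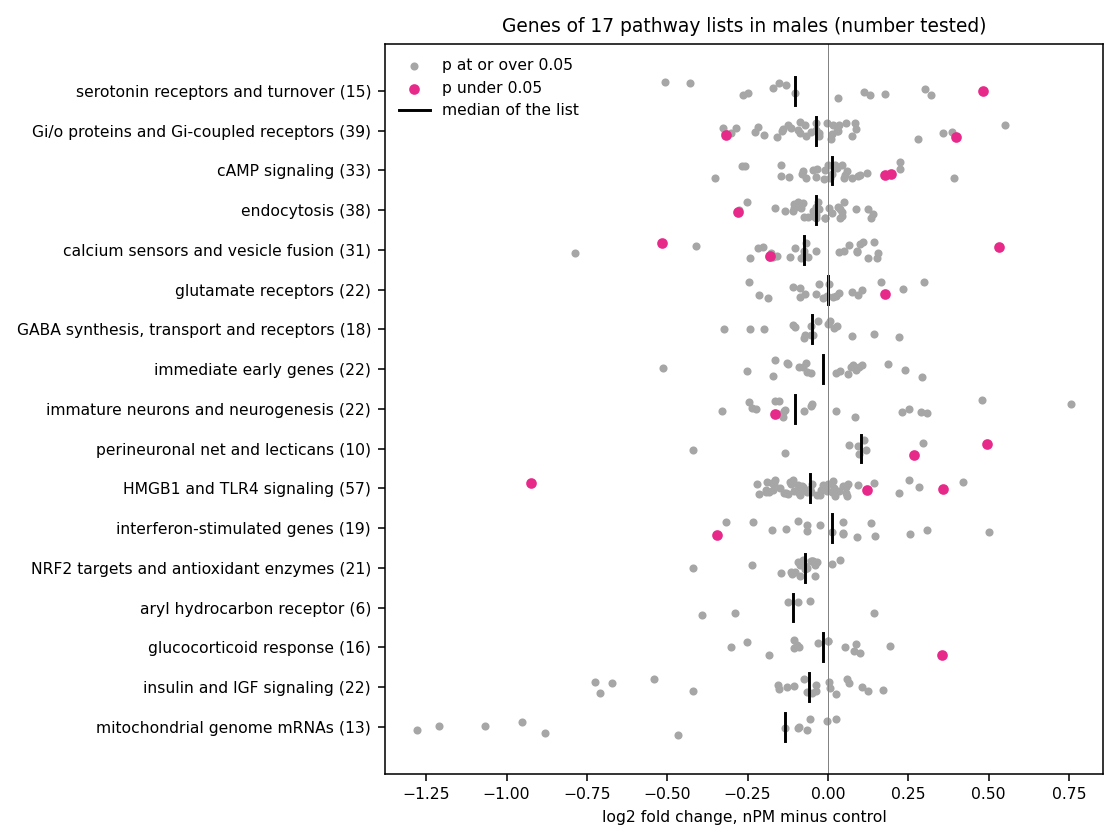
Log2 fold change of nPM over control males (horizontal axis) for every tested gene of 17 pathway lists (rows, with the number tested), with genes at p under 0.05 in color and a bar at each list's median. The medians lie between -0.13 for mitochondrial mRNAs and 0.10 for the perineuronal net, and the 18 colored genes lie on both sides of 0.

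In the list of HMGB1 and TLR4 signaling, a pathway of danger signals and inflammation that the study followed up, 37 of 57 tested genes were lower, with a median of -0.05 that became -0.01 with total counts alone. The summed level of the list was 2958 to 3051 CPM in controls and 2826 to 2949 CPM after nPM, which by a narrow margin did not overlap. The sums of control and nPM males overlapped for every other pathway list. Hmgb1 itself was at 85.3 ± 4.81 CPM (SD, n = 5) in controls and 88.9 ± 9.41 after nPM (log2 fold change 0.06 ± 0.08 (SE), limma p = 0.488, exact permutation p = 0.508), and its receptor Tlr4 at 4.06 ± 0.383 CPM (SD, n = 5) in controls and 3.72 ± 0.441 after nPM (log2 fold change -0.12 ± 0.13 (SE), limma p = 0.374, exact permutation p = 0.278). Il12a, a subunit of the cytokines IL-12 and IL-35, had 18, 17, 34, 18 and 22 counts in controls and 9, 14, 14, 16 and 9 after nPM. The groups did not overlap, with 17 counts in the lowest control and 16 in the highest nPM sample, and p was above 0.005 (log2 fold change -0.92 ± 0.31 (SE), limma p = 0.0119, exact permutation p = 0.00794). Relb, a subunit of NF-κB, was at 2.94 ± 0.537 CPM (SD, n = 5) in controls and 3.76 ± 0.336 after nPM (log2 fold change 0.36 ± 0.14 (SE), limma p = 0.0297, exact permutation p = 0.0317), and the kinase Ikbkb at 0.12 ± 0.05. Without control male 1 and nPM male 1, none of the 57 had p under 0.05. Rhou was at -0.09 ± 0.12 (SE), Tgfb2 at -0.21 ± 0.23 (SE), Ngfr at -0.19 ± 0.24 (SE), Pik3r6 at -0.19 ± 0.26 (SE) and the cytochrome P450 Cyp4f15 at -0.19 ± 0.11 (SE), none with p under 0.05. Il1b, Il6, Tnf and Ccl2 were below the filter.

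Of 19 interferon-stimulated genes, Ifih1, an RNA sensor, was at 8.2 ± 1.82 CPM (SD, n = 5) in controls and 6.42 ± 0.545 after nPM (log2 fold change -0.35 ± 0.15 (SE), limma p = 0.0368, exact permutation p = 0.0635), and 10 were higher. With both first libraries left out, none had p under 0.05 and the median went from 0.01 to -0.13. None of 21 genes of NRF2 targets and antioxidant enzymes had p under 0.05. They were lower in 19 of 21 cases by small amounts (median -0.07, and -0.03 with 16 lower with total counts alone), from -0.42 ± 0.32 for Nqo1 to 0.04 ± 0.09 for G6pdx. None of 6 tested genes of the aryl hydrocarbon receptor, a sensor of combustion products, had p under 0.05, with its target Cyp1b1 at -0.39 ± 0.22 (SE). The study describes nPM as lacking polycyclic aromatic hydrocarbons, so a response to these was not tested. In the glucocorticoid list, 1 of 16 had p under 0.05, and 2 did both without control male 1 (median -0.12, from -0.01) and with both first libraries left out. Nr3c2, the mineralocorticoid receptor, was at 189, 278, 253, 242 and 265 CPM in controls and 328, 323, 334, 258 and 319 CPM after nPM. nPM male 4 lay in the control range (log2 fold change 0.35 ± 0.11 (SE), limma p = 0.00645, exact permutation p = 0.0238), while the glucocorticoid receptor Nr3c1 was at -0.11 ± 0.07 (SE) and its target Fkbp5 at 0.05 ± 0.09. None of 22 genes of insulin and IGF signaling had p under 0.05.

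None of 13 mRNAs of the mitochondrial genome had p under 0.05, and 12 were lower (median -0.13). Their precision differed. The mRNAs mt-Nd1, mt-Nd2, mt-Nd4, mt-Nd5, mt-Co1 and mt-Cytb had SEs of 0.06 to 0.09, and mt-Cytb was at -0.06 ± 0.06. The subunit mRNA mt-Co2 had 7786, 7046, 3793, 20414 and 16117 counts in controls and 16640, 1689, 2320, 1996 and 23446 after nPM, and both the lowest and the highest library were nPM males. mt-Atp8, mt-Atp6, mt-Nd3, mt-Nd4l and mt-Co3 had SEs of 0.76 to 1.10, and their negative log2 fold changes were within the spread of the samples.

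The cell types of the hippocampus were followed by the summed CPM of marker lists. Of 198 marker genes tested, 10 had p under 0.05 (5.05%, beside 4.3% of all genes) and none had p under 0.005. The sums of the 2 groups overlapped for each of the marker lists. Granule cell markers summed to 572 to 914 CPM in controls and 749.9 to 988 after nPM, with 9 of 11 higher (median 0.17, and 0.06 without control male 1). CA1 markers summed to 539 to 711 CPM in controls and 425 to 686 CPM after nPM, with nPM male 1 the lowest library (median 0.21, and 0.05 without control male 1). Markers of CA3, interneurons, astrocytes and microglia had medians between -0.03 and 0.02. All 12 oligodendrocyte markers were higher, by a median of 0.20, but their sum in control male 1 was 2728 CPM where the other males had 4148 to 6242, and without control male 1 and nPM male 1 the median was -0.03 with 5 of 12 higher.

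**Figure D4:**
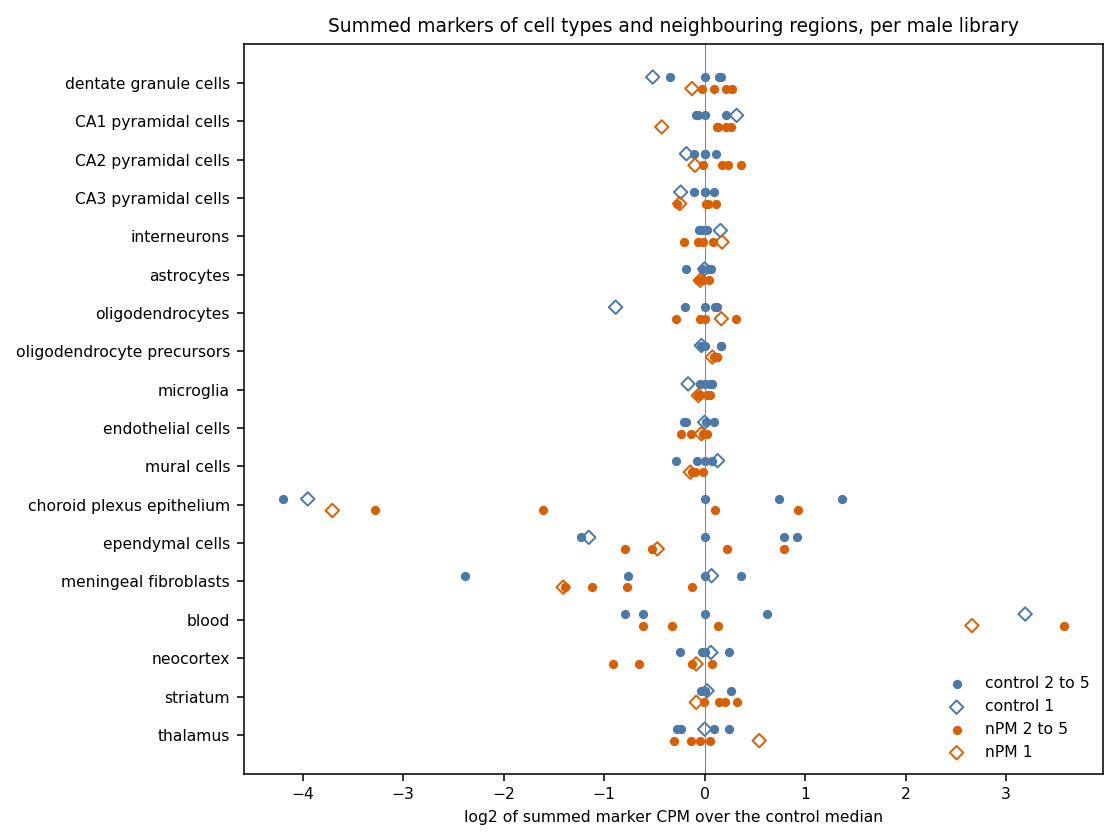
Summed CPM of each marker list relative to the median control male (horizontal axis, log2 scale) in each male library, controls in blue and nPM in orange, with libraries 1 of each group as open diamonds. Choroid plexus epithelium, ependymal cells, meningeal fibroblasts and blood spread widely within both groups, while astrocytes and microglia stay near 0.

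Markers of tissue at the border of the hippocampus varied widely between libraries. Choroid plexus markers, with Ttr and Enpp2 highest, summed to 264 CPM in the lowest male and 47.3 times that in the highest, from 264 to 12472 CPM in controls and 371 to 9218 after nPM. The median of the list, -0.46, ranged from -1.49 to 0.26 with a sample left out. The first principal component, with 32.0% of the variance, ran from -52.4 to 41.8 in controls and -24.7 to 36.3 after nPM. All 12 meningeal fibroblast markers were lower (median -0.31, and -0.10 without control male 1), with sums of 43.8 to 293 CPM in controls and 86.2 to 209.8 CPM after nPM. Neocortical markers summed to 190.2 to 267 CPM in controls and 119.5 to 236 CPM after nPM, and 6 of 7 were lower (median -0.46). Tshz2 was at -0.65 ± 0.24 (SE) and Cux2 at -0.50 ± 0.20 (SE), the neocortical markers with p under 0.05. Rorb, with Tshz2 the most abundant of the list, was at -0.03 ± 0.17 (SE), and Foxp2, the only higher marker, at 0.16. With a summed level as a covariate, the number of genes with p under 0.005 was 90 for choroid plexus, 86 for striatum, 77 for neocortex and 62 for dentate granule cells, of which 39, 34, 16 and 19 were among the 42. Doc2b and Bcl11b kept p under 0.005 in each of these fits, as did Htr1b.

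The noncoding RNA Gm3764, the host of a microRNA, was among the 20 higher genes. miR-9 is a brain microRNA known for its part in neural progenitors and neuronal differentiation, and 3 loci make the same mature strand. Mir9-1 (ENSMUSG00000106493.1, chromosome 3, 88215598 to 88215686, plus strand) is the hairpin gene inside the noncoding RNA Gm3764 (ENSMUSG00000097156.7, chromosome 3, 88206813 to 88229959, plus strand). The mature sequences, from RefSeq on GRCm38.p6, are shown for the seed (bases 2 to 8, in capitals) through which a strand pairs with its targets.
mmu-miR-9-5p: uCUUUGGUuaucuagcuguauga
mmu-miR-9-3p: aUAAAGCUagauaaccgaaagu
The hairpin they come from lies at chr3:88215598-88215686.

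Mir9-1 had 31, 10, 11, 28 and 19 counts in controls. After nPM it had 29, 37, 42, 48 and 48 counts, and the groups overlapped because control male 1 lay above nPM male 1 (log2 fold change 0.96 ± 0.31 (SE), limma p = 0.00902, exact permutation p = 0.0159). In limma it passed 0.005 in 2 of the 10 fits without a sample, those without control male 1 and without nPM male 1, and with both left out its log2 fold change was 1.33. Gm3764 was at 44.6, 35, 36.1, 29.7 and 36.1 CPM in controls and 49.7, 46.8, 42.4, 41.1 and 49.2 CPM after nPM, where control male 1 lay in the nPM range (log2 fold change 0.35 ± 0.10 (SE), limma p = 0.00464, exact permutation p = 0.0238). Libraries of total RNA of this kind hold mostly fragments of longer transcripts, and the mature strand was not measured here. Mir9-2 had 0 counts in all 10 libraries, and the log2 fold change of its host C130071C03Rik was -0.03 ± 0.06 (SE). Mir9-3, below the filter, had 0, 0, 0, 1 and 0 counts in controls and 0, 0, 4, 2 and 8 after nPM.

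Promoters of the 42 genes were searched for motifs in RefSeq windows from 250 bases before to 50 after each start (GRCm38.p6), which 20 of the 42 genes had, 10 of them higher and 10 lower. The cAMP response element (TGACGTCA) was in 1 of the 10 higher, that of Gm3764, and 0 of the 10 lower, beside 3.4% of the promoters of 12228 tested genes. The GC box (GGGCGG) was in 4 and 4, beside 65.6%. The E-box (CACGTG) was in 2 and 1 (11.1%), the antioxidant response element (TGACNNNGC) in 0 and 1 (16.7%) and the STAT site (TTCNNNGAA) in 2 and 2 (8.06%). Both strands were searched, the STAT site, E-box and cAMP response element read the same on both, and a match is a description of the letters only. The windows of Gm3764 and Bcan are shown because these higher genes hold a match, in capitals, which in Bcan is the GC box of the other strand (CCGCCC).
Gm3764, chr3:88214232-88214531, plus strand: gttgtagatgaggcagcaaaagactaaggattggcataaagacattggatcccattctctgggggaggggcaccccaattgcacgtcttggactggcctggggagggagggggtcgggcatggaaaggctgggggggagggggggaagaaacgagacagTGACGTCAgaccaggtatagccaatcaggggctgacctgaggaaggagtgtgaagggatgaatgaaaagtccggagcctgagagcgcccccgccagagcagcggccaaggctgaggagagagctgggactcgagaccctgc
Bcan, chr3:88000307-88000606, minus strand: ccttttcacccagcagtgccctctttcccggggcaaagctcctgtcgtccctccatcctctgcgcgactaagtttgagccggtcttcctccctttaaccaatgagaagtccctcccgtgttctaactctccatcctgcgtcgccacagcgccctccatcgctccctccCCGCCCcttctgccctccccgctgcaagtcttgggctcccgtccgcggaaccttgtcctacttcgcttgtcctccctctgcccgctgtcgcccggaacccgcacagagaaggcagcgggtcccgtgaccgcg

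Whether the effect in males differed from that in females was tested by the interaction of sex and exposure in a fit of all 20 samples and 19797 genes, in which 43 genes had p under 0.005 (0.217%) and none an adjusted p under 0.05. The smallest adjusted p was 0.413, for Ddx3y, a Y-linked gene with at most 7 counts in any female. At p under 0.05 there were 751 genes (3.79%). The males were also older than the females and were given EdU, so the interaction cannot tell sex apart from these. The 43 became 27 without control female 3 and 81 without control female 1. edgeR gave 66 genes with p under 0.005 and 1 with an adjusted p under 0.05, again Ddx3y. Of the 42 genes called in males, 40 were in this fit, and 16 of those 40 had the same direction in females, or 40.0%, beside 44.4% of all 18823 genes in both fits. The median size of the difference was 0.57 in males and 0.13 in females, and 1 had p under 0.05 in females. The male difference chose these genes, so the larger size in males follows in part from the choice.

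Of the 40, 6 had an interaction p under 0.005, and each had an adjusted p of 0.987. Doc2b was at 46.2, 54.9, 50.8, 59.3 and 67.8 CPM in control females and 67.9, 57, 58.6, 49.9 and 46.4 CPM in nPM females, which overlap fully. All of these but nPM female 5 and control female 1 were above the CPM of every male other than nPM male 5, and the difference between the sexes was 0.53 ± 0.16 (SE). Slc25a24, lower in males, averaged 2.06 ± 0.237 CPM (SD, n = 5) among control females and 2.48 ± 0.418 among nPM females, a difference between the sexes of -1.06 ± 0.24 (SE). For Ttc30a2, which encodes a protein of intraflagellar transport, it was 2.39 ± 0.56 (SE), with 4 to 17 counts in control males and 18 to 51 in nPM males. Its copies Ttc30a1 and Ttc30b were at -0.10 ± 0.13 (SE) and -0.14 ± 0.11 (SE) in males. For Tecta it was -1.73 ± 0.49 (SE), for the pseudogene Gm16418 -0.87 ± 0.20 (SE) and for Gm43753 1.11 ± 0.33 (SE). Htr1b was at 0.48 ± 0.13 (SE) in males and -0.23 ± 0.19 in females, and the difference between the sexes of 0.72 ± 0.26 (SE) had a limma p of 0.0106, above the threshold.

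**Figure D5:**
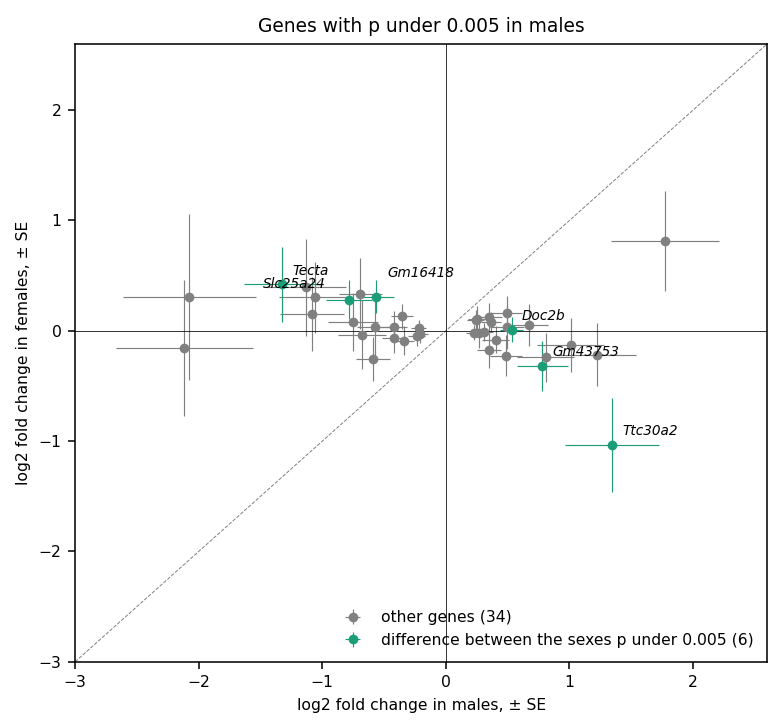
Log2 fold change after nPM in females (vertical axis, ± SE, from the fit of 4 groups) against that in males (horizontal axis, ± SE, from the males alone) for 40 of the 42 genes called in males, with the dashed line marking equal effects. Genes chosen for a difference in males spread along the horizontal axis, from -2.12 to 1.77 in males, and range from -1.03 to 0.82 in females, and the 6 in color had an interaction p under 0.005.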

How the data were processed

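The labels name 20 hippocampal libraries, 5 per sex and exposure. The deposited table holds raw counts per gene. Per the labels and the study's methods, total RNA was depleted of ribosomal RNA with RiboZero Gold and sequenced on an Illumina instrument. The authors checked reads with FastQC, trimmed them with Trimmomatic, aligned them to mm10 with HISAT2 and counted them with featureCounts 1.5.0-p3 on Gencode M11. The strand setting and the treatment of reads with several matches are not given in the sources used here. A wrong setting of either would alter counts of overlapping genes and of near copies.

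The 10 male libraries were fitted with limma-voom (limma 3.58.1, edgeR 4.0.16, R 4.3.3) after filterByExpr (minimum count 10, minimum total 15) and TMM scaling, and fold changes are on the voom log2 scale, which adds 0.5 to each count. Genes were called at p under 0.005, and Benjamini-Hochberg adjustment ran over all genes tested. Exact two-sided permutation tests used the difference of mean log2 CPM of single genes. The interaction was fitted over all 20 libraries. DESeq2 1.42.0, other scalings and filters, covariates, a replicate block and the omission of each sample were alternatives. Scripts were tested on simulated data.

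The gene lists and the members of the comparison were chosen with earlier results of these data known. Named genes were the 12 with the smallest p in each direction among those called, the 3 most abundant, those the study's text names, the 2 with the smallest p of each list, the 2 most abundant markers of each cell type, and the sex markers. Other called genes, list members and relatives were named after their values were seen. A few results for single genes are not reported here, though counts include them. Sequences are from RefSeq (GRCm38.p6). Depth was 28026459 to 38663408 counts, and low counts limit precision as given with the results.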

Additional observations from a re-analysis of the deposited data

Results flagged for a closer look

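In groups of 5, a sample was singled out when its gap to the nearest other sample took up most of the group's range by Dixon's criterion, which chance meets in about 1 of 20 groups. It did so in 18 of 286 groups checked (6.29%). Values are log2 CPM. Among called genes, control male 3 stood apart for Col11a1 at 4.20, control male 4 for C78859 at 3.80, nPM male 5 for Tcte1 at 0.53, nPM male 3 for Slc2a4rg-ps at 2.18, and control male 1 for Cxadr at 5.87 and Dsc3 at 4.19. Among other genes, control male 1 stood apart for the globin Hba-a1 at 3.36 and the Y-linked Kdm5d at 5.78. nPM male 1 stood apart for Gbp3 at 2.38 and Gad2 at 8.14. nPM male 5 did so for Tlr4 at 1.57, nPM male 4 for Nr3c2 at 8.01, control male 5 for Adcy5 at 6.40 and control male 4 for Slc1a2 at 11.68. The log2 of summed marker CPM set apart nPM male 1 for CA1 at 8.73 and control male 4 for striatum at 7.70.

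The effect of nPM in males minus that in females had an interaction p under 0.005 in limma for 7 of the genes followed, leaving out Y-linked genes, which had almost no counts in females. The differences on the log2 scale were 0.53 for Doc2b, 1.11 for Gm43753, 2.39 for Ttc30a2, -1.73 for Tecta, -1.06 for Slc25a24, -0.87 for Gm16418 and -0.42 for the glutathione transferase Gsta4. All but Gsta4 were genes called in males, so the choice of genes favored a difference.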

How the results depend on the processing

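The number of genes with p under 0.005 in males, 42, became 107 with DESeq2, 66 with total counts alone, 104 with no filter, and 90, 86 and 77 with the choroid plexus, striatum and neocortex level as covariates. It ranged from 24 to 79 with a sample left out. DESeq2 gave 1 gene with an adjusted p under 0.05. The 127 genes without overlap became 248 with no filter, 82 with protein-coding genes alone, 473 without control male 1 and nPM male 1, and 176 to 352 with a sample left out, where smaller groups overlap less often by construction. The 43 interactions became 66 with edgeR, 149 with no filter, and 27 to 81 with a sample left out. Elsewhere the cause of a change was not tested.

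The replicate block gave 32 genes in males, 21 of them higher, and 50 interactions. Same-numbered samples had deviations correlated at -0.42 to 0.17, and 0 of 5 numbers matched best with their own. No pairing by number was seen in these deviations, which cannot show whether samples shared a litter or a batch. Over 20 alternatives, the 42 genes gave 814 values with a test, of which 607 stayed under 0.005 and 207 did not. With a sample left out, 222 of 420 stayed under it. None of these changed direction. Depth limits low genes, since at the median SE of genes under 1 CPM the threshold corresponds to a 2.26-fold change.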
